A study of Rattus norvegicus with 12 samples.

Results

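The genes described here encode the myosin of the cardiac thick filament and its closest partners. They were chosen by symbol, as every transcript row named Myh6, Myh7, Myh7b, Myl2, Myl3, Myl4, Myl7, Mylk3, Mybpc3 or Myom1, which gave 10 genes with 1 transcript each, of 17301 gene names and 18752 transcripts. Expression was measured by RNA sequencing in adult rat ventricular myocytes (ARVMs), the contractile cells of the ventricle, isolated from male Sprague-Dawley rats. Both groups were transduced with an adenovirus at a multiplicity of infection (MOI) of 50 and harvested 48 h later. The control virus encoded green fluorescent protein (Ad-GFP, n = 6), and the other virus carried the human NR4A2 reading frame behind the cytomegalovirus promoter (Ad-h-NR4A2, n = 6). Both groups were plated and cultured in medium with 2,3-butanedione monoxime, an inhibitor of myosin ATPase, so that the comparison concerns cultured myocytes whose contraction is chemically suppressed. Samples of each group are numbered 24 to 29, and same-numbered samples are compared here as pairs.

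Each myosin molecule holds a pair of heavy chains, which carry the motor, and on each heavy chain an essential and a regulatory light chain. Myh6 encodes the fast α-heavy chain that dominates in the adult rat ventricle, and Myh7 the slower β-heavy chain, whose share rises in fetal, hypothyroid and overloaded hearts. Myl2 and Myl3 are the ventricular regulatory and essential light chains, Myl7 and Myl4 their atrial counterparts, and Mylk3 the cardiac kinase that phosphorylates Myl2. Mybpc3 (cardiac myosin-binding protein C) tunes the attachment of myosin to actin, and Myom1 (myomesin) links thick filaments at the M-band. NR4A2 is an orphan nuclear receptor that binds DNA as a monomer at the sequence AAAGGTCA, called NBRE.

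On the Rn5 build used for the files, Myh6 (chr15:37492599-37516191) and Myh7 (chr15:37521021-37542688) lie side by side, 4829 nt apart. Myh7b is at chr3:157494398-157518151 and Mybpc3 at chr3:86649314-86667483 on the same chromosome. The light chain genes are at chr12:41831137-41835806 (Myl2), chr8:118370093-118376218 (Myl3), chr10:92390125-92398028 (Myl4) and chr14:86828588-86830568 (Myl7). Mylk3 is at chr19:38373230-38407268 and Myom1 at chr9:118808061-118922531. These are the spans of whole transcripts, and each value below counts fragments on the exons of 1 transcript, the UTRs that it holds included.

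The regions around the annotated starts of both major heavy chain genes are shown because their transcripts fell together. Each is RefSeq sequence of the GRCr8 build, a later build than that of the files, from 250 bases before to 50 bases after the annotated start, and capitals mark the motif CATTCC (MCAT, bound by TEAD factors). The Myh6 window is chr15:32411648-32411947 and the Myh7 window chr15:32438145-32438444, both on the minus strand. In the Myh7 window an ATG follows the annotated start within a few bases, so that this start may be that of the first coding exon. The window may then hold intron in place of the promoter, and its lack of MCAT says nothing about the Myh7 promoter.
Myh6: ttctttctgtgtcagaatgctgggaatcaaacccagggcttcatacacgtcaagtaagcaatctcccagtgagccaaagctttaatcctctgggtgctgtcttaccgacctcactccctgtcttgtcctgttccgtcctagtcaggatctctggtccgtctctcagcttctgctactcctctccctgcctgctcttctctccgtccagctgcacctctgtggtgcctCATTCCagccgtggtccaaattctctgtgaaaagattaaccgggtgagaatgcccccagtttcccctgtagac
Myh7: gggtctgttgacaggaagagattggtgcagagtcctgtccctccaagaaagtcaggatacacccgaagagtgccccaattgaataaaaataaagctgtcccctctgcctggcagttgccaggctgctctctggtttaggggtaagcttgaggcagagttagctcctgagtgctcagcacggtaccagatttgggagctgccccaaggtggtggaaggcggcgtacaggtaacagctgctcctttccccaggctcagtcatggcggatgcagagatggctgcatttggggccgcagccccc
A window was at hand for 9 of the 10 genes, Myl2 being the exception. NBRE was found on neither strand in any of the 9 windows, against 1.43% of 33469 rat windows of the same length. Its core AGGTCA, which NBRE contains, occurred in Myh7b only, 247 bases before the start on the minus strand, and in 16.2% of all windows. MCAT occurred in Myh6 (23 bases before the start), in Myl3 at 189 and 161 bases before the start, and in Mylk3 at 41 bases, that is, in 3 of 9 windows against 14.2% of all windows. These matches of letters describe a window of 300 bases and show no binding. An annotated start need not be where transcription begins. In the Myom1 window an ATG stands at the start itself, and the Myl7 window holds an ATG well before the start. Such windows may lie inside the gene, as may that of Myh7, so that a motif missing from the 9 windows can still be present in a promoter.

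The 3 heavy chain genes also carry microRNAs in their introns. Their mature sequences (RefSeq, GRCr8), with the seed (bases 2 to 8) in capitals, are given because they are made from the transcripts measured here.
rno-miR-208a-3p (in Myh6, chr15:32395568-32395585, minus strand): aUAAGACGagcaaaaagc
rno-miR-208b-3p (in Myh7, chr15:32421648-32421665, minus strand): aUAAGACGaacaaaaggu
rno-miR-499-5p (in Myh7b, chr3:164570616-164570636, plus strand): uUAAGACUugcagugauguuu
The seeds of miR-208a and miR-208b were alike at 7 of 7 bases, and those of miR-208a and miR-499 at 6 of 7. The 3 precursors were listed at 0 in all 12 samples. Libraries made from polyadenylated mRNA are not suited to such short RNAs, so that nothing about the microRNAs can be read from these zeros.

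Rat Nr4a2 was listed at 0.884 ± 0.309 FPKM (fragments on a transcript, scaled to its length and to the depth of the sample, as mean ± SD, n = 6) with Ad-GFP and at 524 ± 70.3 with Ad-h-NR4A2. Groups were thus as labeled, although reads of the human transgene can be counted here only where they map to rat sequence. The depth implied by the steps between low values ranged from 18800000 to 28000000 fragments in the Ad-GFP group and from 21500000 to 27300000 in the Ad-h-NR4A2 group. All 8 cardiomyocyte markers were tested and summed to 24654 to 30861 FPKM with Ad-GFP and 22321 to 26391 with Ad-h-NR4A2; 4 were lower, 1 was higher and 3 did not pass, where 21.7% of all genes tested were lower and 19.3% higher. Nonmyocyte markers were low, with sums of 9.22 to 30.7 against 5.85 to 26.9 FPKM for 8 fibroblast markers, 6.95 to 21.4 against 5.90 to 20.7 for 6 endothelial markers and 7.07 to 20.3 against 6.86 to 16.5 for 4 smooth muscle markers. Col1a2 was listed at 0 throughout, which can be a failed estimate, since Myl6, a light chain of nearly all cells, was also listed at or near 0. Of these, Col3a1 and Myh11 were lower and none was higher, and in a fit with a replicate block for the sample number 3 fibroblast, 1 endothelial and 1 smooth muscle marker were lower, where 32.3% of all genes were lower by that fit. The 5 macrophage markers summed to 6.94 to 18.0 FPKM with Ad-GFP and to 39.1 to 50.1 FPKM with Ad-h-NR4A2. Of the 4 tested, Csf1r (means of 10.1 and 40.2 FPKM) and Cd14 (0.222 and 1.19) were higher, where 19.3% of all genes were higher. Lyz2 (1.69 and 1.59), lower in 5 of 6 pairs, and Cd68 (0.463 and 0.482) did not pass. Ptprc (0.0258 and 0.0218) was not tested, and Cd68 and Ptprc stayed below 1 FPKM. The part of these markers in the results below was not tested. In bulk RNA, fewer cells of a type and less RNA per cell cannot be told apart.

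Leaving aside Myl2, 9 genes could be ordered by their level in the Ad-GFP samples, and they spanned more than 3 orders of magnitude in FPKM. Myl3 was the highest (5118 ± 604), followed by Myh6 (1152 ± 104), Mybpc3 (1002 ± 55.8), Myh7 (273 ± 75.4), Mylk3 (228 ± 39.2), Myom1 (89.7 ± 8.55), Myl4 (10.8 ± 1.39), Myh7b (7.25 ± 1.39) and Myl7 (3.80 ± 2.47). Myl2 was listed at 12391 ± 807 FPKM, but on a transcript model of 248 nt, much shorter than that of any other gene here, so that its level was not ranked against theirs. Among neighbors in this order, the ranges of Myh6 and Mybpc3 overlapped, although Myh6 was the higher in 5 of 6 samples. The ranges of Myh7 and Mylk3 overlapped as well, with Myh7 above Mylk3 in 5 of 6 Ad-GFP samples and in 1 of 6 Ad-h-NR4A2 samples. Myh7b and Myl7 also overlapped, Myh7b being the higher in 5 of 6 samples of each group, whereas the other neighbors did not overlap. The atrial essential light chain Myl4 was thus far below its ventricular counterpart Myl3.

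The spread between samples also differed between genes. With Ad-GFP the coefficient of variation was 5.57% for Mybpc3, 6.51% for Myl2, 8.99% for Myh6, 9.53% for Myom1, 11.8% for Myl3 and 12.8% for Myl4. It was 17.2% for Mylk3, 19.2% for Myh7b, 27.7% for Myh7 and 64.9% for Myl7. Myh7 and Myl7 were thus the genes in which a change between groups was hardest to see. The implied number of fragments was no limit for Myh7 (12092 to 55243 per sample), whereas Myl7 rested on 12 to 112 fragments, Myl4 on 86 to 222 and Myh7b on 617 to 1284.

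**Figure D1:**
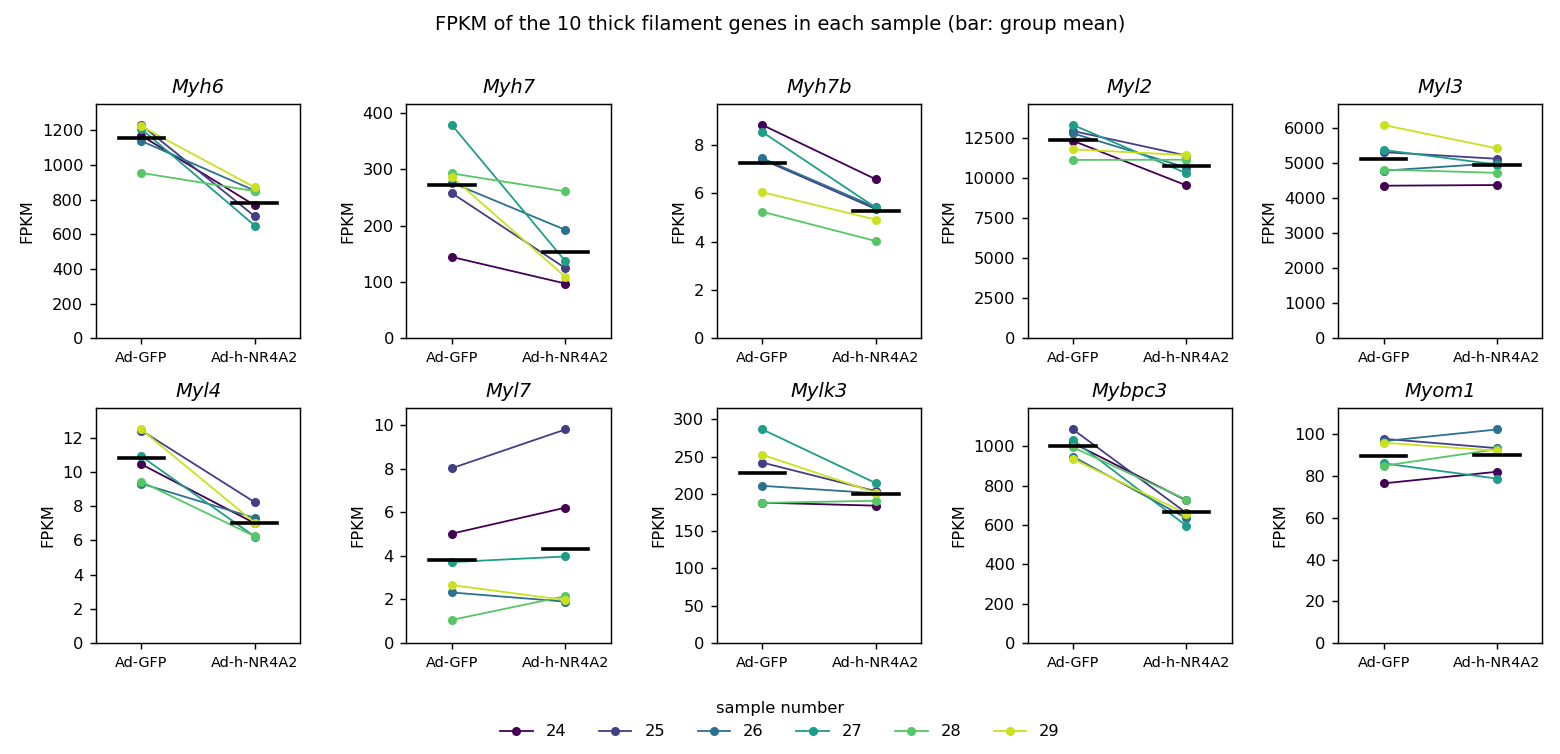
FPKM of each of the 10 genes (vertical axis, linear from 0) in the Ad-GFP and Ad-h-NR4A2 samples, with lines joining same-numbered samples, colors marking the number and black bars the group means. Myh6, Myl4 and Mybpc3 separate the groups fully, Myh7 and Myh7b fall in each pair but overlap between groups, and Myl3, Myl7 and Myom1 show no common direction.

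With Ad-h-NR4A2, transcripts of 6 of the 10 genes were lower and none was higher at an adjusted p below 0.05 (limma on log2(FPKM + 0.1), Benjamini-Hochberg adjustment over 10950 genes). The 6 were the heavy chains Myh6, Myh7 and Myh7b, the light chains Myl2 and Myl4, and Mybpc3. Of all genes tested, 21.7% were lower and 19.3% higher by the same rule. Requiring also a 1.5-fold difference of the mean FPKM left Myh7, Myl4 and Mybpc3, all lower, where 7.24% of all genes were lower and 7.94% higher by that rule, and the 2 genes nearest to that limit were Mybpc3 just inside (ratio of means 0.665) and Myh6 just outside (0.678). The median log2 fold change of the 10 genes was -0.32, and that of all genes tested was -0.02. Lower values in 6 of 6 pairs were found for 5 of the genes and for 29.1% of all genes, and groups without any overlap for 3 of the genes and for 10.6% of all genes in this direction.

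Myh6, the α-heavy chain, was measured at 953 to 1229 FPKM (median 1187) with Ad-GFP and at 650 to 869 FPKM (median 807) with Ad-h-NR4A2. Every Ad-h-NR4A2 sample was below every Ad-GFP sample, and in the pairs the log2 difference ran from -0.89 in pair 27 to -0.17 in pair 28. The change came to -0.56 ± 0.08 (SE) on the log2 scale (adjusted p = 1.14e-04, limma). The small difference of pair 28 goes with the lowest Ad-GFP value of the 6, 953 FPKM.

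Myh7, the β-heavy chain, was at 144 to 378 FPKM (median 281) with Ad-GFP and at 97.4 to 261 FPKM (median 131) with Ad-h-NR4A2. It was lower in 6 of 6 pairs, but the groups overlapped, since Ad-h-NR4A2 samples 26 and 28 exceeded Ad-GFP sample 24. The mean fell from 273 ± 75.4 to 154 ± 62.0 FPKM, or by -0.86 ± 0.25 on the log2 scale (adjusted p = 0.0146, limma). Pairs 25, 27 and 29 differed by a log2 of -1.05, -1.46 and -1.39, and pair 28 by only -0.17. Myh6 and Myh7 have closely similar coding sequences, and how reads that align to both were shared is not given in the sources used here.

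Myh7b, a slow heavy chain better known as the host of miR-499, was at 5.24 to 8.83 FPKM (median 7.42) with Ad-GFP and at 4.03 to 6.58 FPKM (median 5.38) with Ad-h-NR4A2. Its pairs all moved down, by a log2 of 0.29 to 0.65, although the groups overlapped. The log2 fold change was -0.44 ± 0.14 (adjusted p = 0.0209, limma). Together, the 3 heavy chain transcripts summed to 1432 ± 128 FPKM with Ad-GFP and to 940 ± 128 FPKM with Ad-h-NR4A2, and their sum was lower in 6 of 6 pairs.

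The balance of the heavy chains was compared as the log2 ratio of Myh6 to Myh7 within a sample. Myh6 exceeded Myh7 in all 12 samples, by 3.19 to 8.08 times (median 4.19) with Ad-GFP and by 3.25 to 7.97 times (median 5.19) with Ad-h-NR4A2. The ratio was thus widely overlapping between groups and was near its highest in both samples numbered 24. On the log2 scale it was 2.13 ± 0.49 and 2.43 ± 0.50, a difference of 0.30 (two-sided exact permutation over 924 splits, p = 0.297, and 0.445 adjusted over 3 ratios). By pair the log2 difference was -0.04, 0.24, 0.10, 0.57, -0.00252 and 0.90 for numbers 24 to 29, with 4 pairs higher and 2 lower. Expressed as a share, Myh7 made up 19.0% ± 4.71 of Myh6 plus Myh7 (range 11.01% to 23.9%) with Ad-GFP and 16.1% ± 4.71 (11.2% to 23.5%) with Ad-h-NR4A2. Over the pairs the mean log2 difference of the ratio was 0.30 ± 0.37 (SD). A sign-flip permutation test, which uses the pair differences, gave p = 0.125 (0.125 adjusted over 3 ratios). A change in the α to β balance was therefore detected neither without nor with the pairing, while both chains fell. This does not show that the balance was unchanged.

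**Figure D2:**
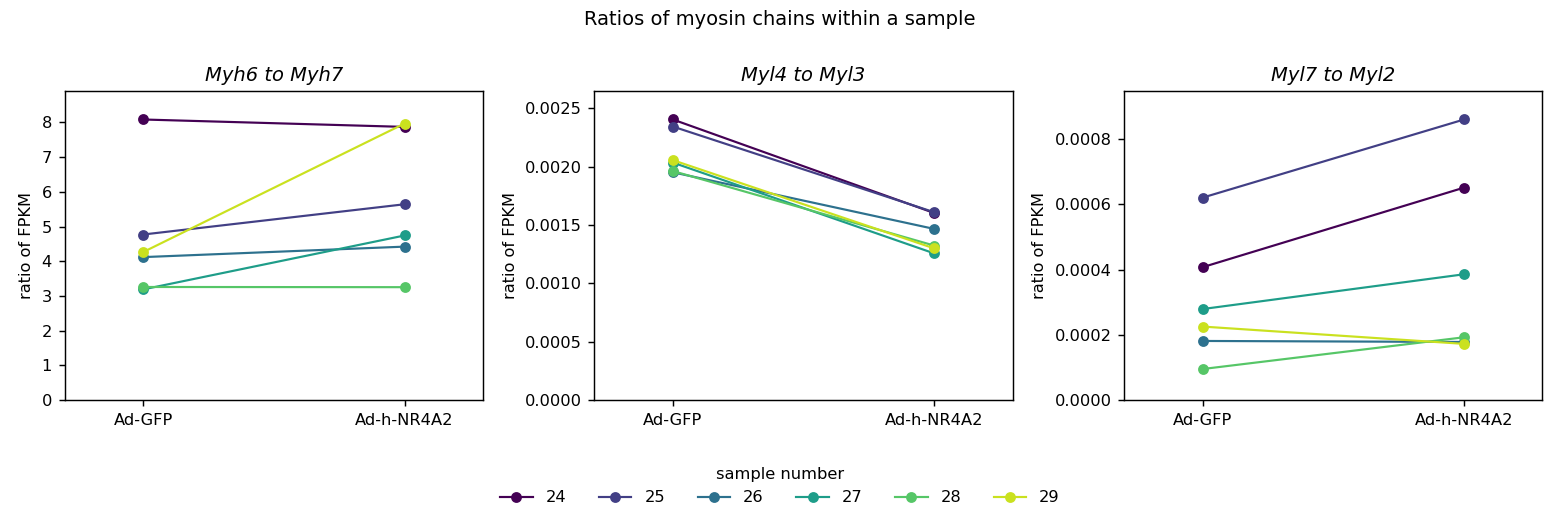
Ratios of FPKM within each sample (vertical axes, linear from 0) for Myh6 to Myh7, Myl4 to Myl3 and Myl7 to Myl2, with lines joining same-numbered samples. The Myl4 to Myl3 ratio is lower in 6 of 6 pairs with no overlap, whereas the Myh6 to Myh7 ratio rises in 4 pairs and hardly moves in pairs 24 and 28.

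Of the ventricular light chains, Myl2 was lower and Myl3 did not pass. Myl2, the regulatory light chain, was at 11142 to 13322 FPKM (median 12567) with Ad-GFP and at 9550 to 11441 FPKM (median 10911) with Ad-h-NR4A2, with overlap of the groups and lower values in 5 of 6 pairs. Its log2 fold change was -0.20 ± 0.07 (adjusted p = 0.0268, limma), a fall of the mean by 13.2%. This call was lost without Ad-GFP sample 25, 26 or 27 or without Ad-h-NR4A2 sample 24 or 27, with adjusted p from 0.0159 to 0.0614 over the 12 such fits. For so short a transcript model the value also depends on fragment length, and the length offset implied by the low values was 160.6 to 166.4 nt in Ad-GFP samples and 156.5 to 165.6 nt in Ad-h-NR4A2 samples. The part of that difference was not tested.

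Myl3, the essential light chain of the ventricle, was at 4353 to 6082 FPKM (median 5061) with Ad-GFP and at 4372 to 5416 FPKM (median 4974) with Ad-h-NR4A2. The ranges nearly coincided, 4 pairs were lower and 2 higher, and the log2 fold change was -0.05 with a 95% confidence interval of -0.22 to 0.12 (adjusted p = 0.659, limma). Set against Myl3 in the same sample, Myh6 was at 0.227 ± 0.0260 in Ad-GFP samples and at 0.159 ± 0.0204 in Ad-h-NR4A2 samples. This quotient was lower in 6 of 6 pairs and did not overlap between groups (0.198 to 0.268 against 0.131 to 0.1798), but it was formed after the values were seen and is given without a test.

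The atrial light chains differed from one another. Myl4, the atrial essential light chain, was at 9.33 to 12.5 FPKM (median 10.7) with Ad-GFP and at 6.22 to 8.24 FPKM (median 7.02) with Ad-h-NR4A2. The groups did not overlap, all pairs were lower, and the log2 fold change was -0.62 ± 0.09 (adjusted p = 1.52e-04, limma). Relative to Myl3, its ventricular counterpart, Myl4 fell as well, with a log2 ratio of -8.87 ± 0.13 in Ad-GFP samples and -9.44 ± 0.16 in Ad-h-NR4A2 samples. The difference of -0.57 was past the threshold by two-sided exact permutation, with p = 0.00216 (the lowest value that 924 splits can give, and 0.00649 adjusted over 3 ratios) and ran from -0.69 to -0.41 over the 6 pairs. With the number as a block, a sign-flip permutation test gave p = 0.03125, the lowest value for 64 sign patterns, which adjustment over 3 ratios raised to 0.0938.

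Myl7, the atrial regulatory light chain, was at 1.06 to 8.03 FPKM (median 3.19) with Ad-GFP and at 1.90 to 9.81 FPKM (median 3.06) with Ad-h-NR4A2. Samples numbered 24 and 25 were the highest of both groups, so that the spread lay between numbers rather than between viruses. The log2 fold change of 0.16 had a confidence interval of -0.89 to 1.21 (adjusted p = 0.824, limma), which leaves room for a change in either direction. The log2 ratio of Myl7 to Myl2 differed by 0.36 (two-sided exact permutation test, p = 0.513, and 0.513 adjusted over 3 ratios), with 4 pairs higher and 2 lower. It ranged from 0.09 without Ad-h-NR4A2 sample 25 or Ad-GFP sample 28 to 0.61 without Ad-GFP sample 25. Of the atrial marker list, which Myl4 and Myl7 belong to, 5 of 6 genes were tested and only Myl4 passed. With the replicate block 2 were lower and 1 was higher. Of all genes 21.7% were lower and 19.3% higher, and 32.3% and 27.1% with the block. Its summed level was 83.3 to 410 FPKM with Ad-GFP and 87.4 to 413 FPKM with Ad-h-NR4A2, most of it Nppa, while Bmp10 averaged 0.0161 and 0.0184 FPKM.

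Mylk3 was at 188 to 286 FPKM (median 226) with Ad-GFP and at 184 to 214 FPKM (median 201) with Ad-h-NR4A2. The groups overlapped and 5 of 6 pairs were lower, the highest Ad-GFP sample, 27, showing the largest difference. The log2 fold change was -0.18, with a confidence interval of -0.38 to 0.02 (adjusted p = 0.149, limma), and it was -0.11 without Ad-GFP sample 27. With the number as a replicate block, the same change passed (adjusted p = 0.0233), and Mylk3 was the only one of the 10 genes whose call differed between both fits.

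Mybpc3 showed the smallest spread of the 10 genes with Ad-GFP and the smallest adjusted p. It was at 936 to 1086 FPKM (median 1006) with Ad-GFP and at 596 to 729 FPKM (median 659) with Ad-h-NR4A2. No sample of one group reached the range of the other, and the log2 fold change was -0.59 ± 0.06 (adjusted p = 2.45e-06, limma), with pairs from -0.79 to -0.45. Mybpc3 per Myh6, a quotient formed after the values were seen and given without a test, was 0.876 ± 0.0922 in Ad-GFP samples and 0.861 ± 0.0904 in Ad-h-NR4A2 samples, lower in 3 of 6 pairs. Myom1, in contrast, was at 76.5 to 97.9 FPKM (median 91.0) with Ad-GFP and at 78.8 to 102 FPKM (median 92.5) with Ad-h-NR4A2. Its log2 fold change was 0.01, with a confidence interval of -0.15 to 0.17 (adjusted p = 0.934, limma), and 3 pairs were lower and 3 higher.

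**Figure D3:**
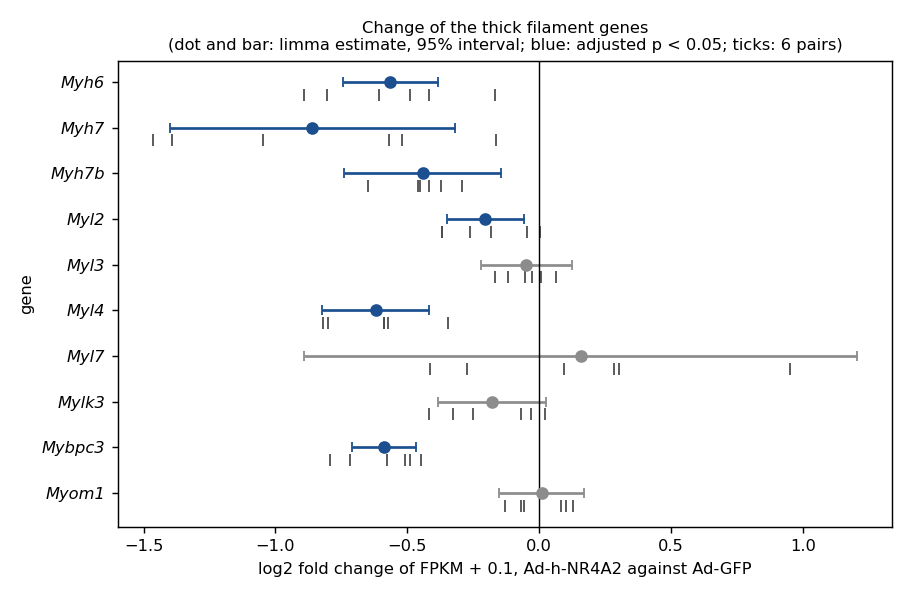
Log2 fold change of FPKM + 0.1 between Ad-h-NR4A2 and Ad-GFP for each of the 10 genes (horizontal axis), with the limma estimate and its 95% confidence interval (dot and bar, blue at an adjusted p below 0.05) and the 6 same-numbered pairs (ticks). The intervals of Myh6, Myl4 and Mybpc3 lie close together below 0, that of Myh7 is wider, and those of Myl3 and Myom1 are narrow around 0.

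The size of the change varied between pairs in a way that several genes shared. Pair 27 had the largest fall for Myh6, Myh7, Myh7b, Mylk3 and Mybpc3 among the 6 pairs. Pair 28 had the smallest fall for Myh6 and Mybpc3 (log2 difference -0.17 and -0.45), and for Myh7 as well. All values of a pair come from the same libraries, so that this agreement between genes rests on shared samples and was not tested.

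Genes that act on or beside these proteins were compared as 5 lists. Of their 75 genes, 51 were tested, of which 24 were lower, 5 higher and 22 did not pass, against 21.7% of all genes lower and 19.3% higher. With the replicate block, 31 were lower and 8 higher, against 32.3% and 27.1% of all genes by that rule.

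Among genes for the folding and turnover of myosin, 9 of 12 were lower and 1 was higher, with a median log2 fold change of -0.31. The shares over all genes tested were 21.7% lower and 19.3% higher, and their median was -0.02. Unc45b, a chaperone that folds the myosin motor domain in striated muscle, was at 55.2 to 75.3 FPKM (median 61.8) with Ad-GFP and at 27.2 to 32.5 FPKM (median 30.8) with Ad-h-NR4A2, with a log2 difference of -1.08 ± 0.08 (adjusted p = 1.85e-07, limma). Smyd1, a muscle lysine methyltransferase that also acts in myosin assembly, moved the other way, from 85.1 to 119 FPKM (median 102) to 287 to 347 FPKM (median 306). Its log2 fold change was 1.61 ± 0.07 (adjusted p = 2.87e-09, limma), and for neither gene did the groups overlap. Fbxo32 (atrogin-1), the substrate-binding part of a muscle ubiquitin ligase, was at 77.0 to 89.2 FPKM with Ad-GFP and at 32.7 to 64.1 FPKM with Ad-h-NR4A2 (log2 fold change -0.85 ± 0.15, adjusted p = 4.71e-04, limma). A further pair of muscle ubiquitin ligases of the list, picked after their values were seen, was lower too, Trim63 (MuRF1) from 93.0 to 53.9 FPKM on average and Trim55 (MuRF2) from 75.9 to 48.4.

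Among regulators known to act on cardiac myosin genes, 8 of 16 tested were lower and 1 was higher, with a median of -0.26. Of all genes tested, 21.7% were lower and 19.3% higher, with a median of -0.02. The largest falls were those of Tbx5 (5.69 ± 0.744 to 3.09 ± 0.503 FPKM, log2 fold change -0.86 ± 0.12), Gata4 (38.4 ± 3.21 to 22.8 ± 2.87 FPKM, -0.76 ± 0.09) and Tead1 (51.3 ± 2.64 to 31.7 ± 3.47 FPKM, -0.70 ± 0.07), with adjusted p of 5.23e-05, 1.23e-05 and 2.87e-06 (limma). Tbx5 and Gata4 are core cardiac transcription factors, and Tead1 is one of the TEAD factors, which bind MCAT motifs. All 3 were lower in 6 of 6 pairs without overlap. The letters of MCAT stand in the windows of Myh6, Myl3 and Mylk3, of which Myl3 and Mylk3 did not pass. Binding of Tead1 to any of these windows was not tested. The thyroid hormone receptor Thra, the receptor through which thyroid hormone raises Myh6 and lowers Myh7 in heart, is part of the same list and was at 10.9 to 20.4 FPKM with Ad-GFP and at 9.70 to 13.7 FPKM with Ad-h-NR4A2 (-0.52 ± 0.13, adjusted p = 0.00528, limma; picked after its value was seen). The paralog of Thra on the list, Thrb, averaged 21.3 and 18.6 FPKM and did not pass (-0.20 ± 0.09, adjusted p = 0.110, limma). Thrb was lower in 6 of 6 pairs and passed with the replicate block (adjusted p = 0.00451, limma). Nkx2-5 (62.4 and 63.6 FPKM) and Srf (22.0 and 21.2 FPKM) did not pass.

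Genes that set the phosphorylation of the light chains were mixed, with 4 lower, 2 higher and 4 not passed among 10 tested. By the same rule 21.7% of all genes were lower and 19.3% higher. Dapk3, a kinase that can phosphorylate myosin light chains, rose from 34.0 ± 3.44 to 55.0 ± 4.75 FPKM (log2 fold change 0.69 ± 0.07, adjusted p = 5.26e-06, limma). Rock1, a kinase that restrains the myosin phosphatase, fell from 40.9 ± 4.58 to 28.6 ± 2.01 FPKM (-0.51 ± 0.07, adjusted p = 8.31e-05, limma). Its paralog Rock2, named after its value was seen, moved the other way, from 94.8 ± 9.30 to 110 ± 7.60 FPKM (0.22 ± 0.07, adjusted p = 0.0192, limma), and was higher in 6 of 6 pairs. Ppp1r12b, the myosin-targeting subunit of that phosphatase in heart, fell from 78.4 ± 6.02 to 57.0 ± 9.34 FPKM (-0.47 ± 0.09, adjusted p = 0.00119, limma). The kinase itself, Mylk3, is described above.

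The list of other thick filament and M-band genes also holds Smpx, whose protein is part of neither. Of this list 4 genes were tested, with 1 lower, 1 higher (Smpx) and 2 not passed (2 lower and 2 higher with the replicate block). Over all genes, 21.7% were lower and 19.3% higher (32.3% and 27.1% with the replicate block). Smpx, which encodes a small muscle protein, rose from 570 ± 13.9 to 749 ± 59.6 FPKM (log2 fold change 0.39 ± 0.05, adjusted p = 3.65e-05, limma). Lrrc39, an M-band protein that binds myosin heavy chain, fell from 87.4 ± 6.23 to 75.6 ± 5.20 FPKM (-0.21 ± 0.06, adjusted p = 0.0102, limma). The list also holds the genes of titin and obscurin, which were not analysed here.

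Of myosin chains of skeletal muscle, smooth muscle and nonmuscle cells, 9 were tested, with 2 lower and 7 not passed, where 21.7% of all genes were lower and 19.3% higher. With the replicate block, 4 of these chains were lower and 2 higher, against 32.3% and 27.1% of all genes. Myh11, the smooth muscle heavy chain, fell from 3.05 ± 0.462 to 1.97 ± 0.374 FPKM (log2 fold change -0.62 ± 0.14, adjusted p = 0.00284, limma), and Myh14, a nonmuscle heavy chain, from 60.6 ± 2.73 to 47.3 ± 5.77 FPKM (-0.37 ± 0.07, adjusted p = 0.00105, limma). Both were lower in 6 of 6 pairs, and the groups overlapped for Myh11 but not for Myh14. Myh11 is also on the list of smooth muscle markers, of which Acta2 (4.57 and 4.38 FPKM) and Tagln (3.37 and 3.10 FPKM) did not pass.

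**Figure D4:**
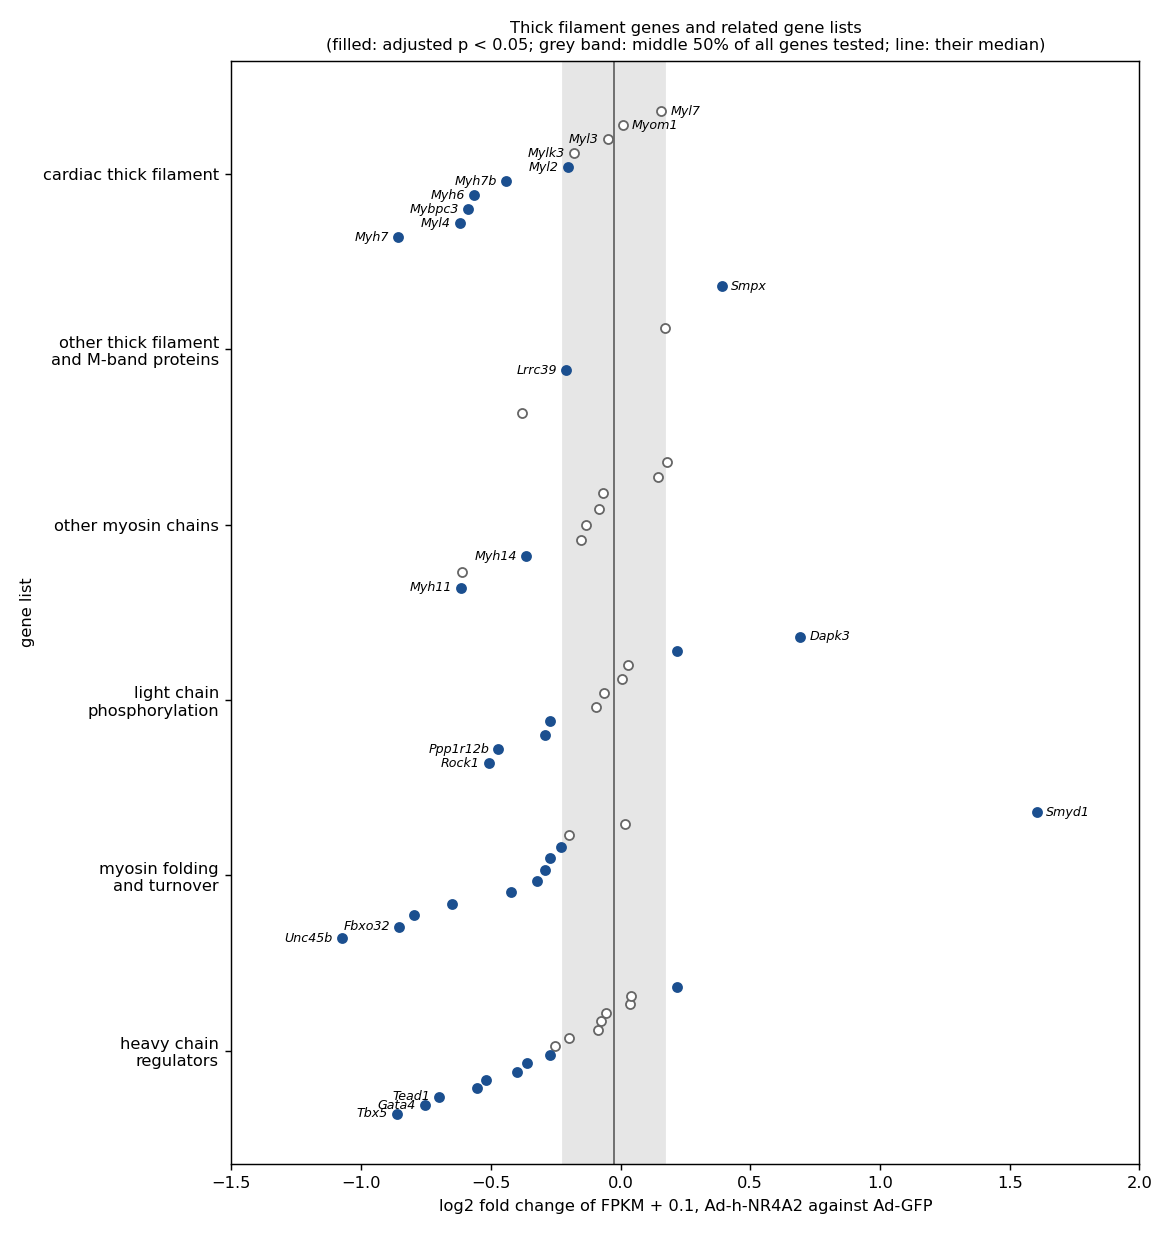
Log2 fold change of FPKM + 0.1 between Ad-h-NR4A2 and Ad-GFP (horizontal axis) for the tested genes of the cardiac thick filament and of the 5 related lists, filled at an adjusted p below 0.05, with the middle 50% of all 10950 genes as a grey band and their median as a line. Unc45b (-1.08) and Smyd1 (1.61) are the farthest points to either side, and most filled points of the folding and regulator lists lie left of the band.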

How the data were processed

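RNA of 12 ARVM samples was sequenced as stranded, paired-end mRNA libraries in a single run. The authors aligned reads with STAR to Rn5 and RefSeq genes and calculated FPKM with Cufflinks, so that the deposited FPKM are fragments per kilobase scaled to the depth of the sample. Whether strand was used in counting is not given in the sources used here. Transcript lengths are listed beside the FPKM, as deposited. The confidence limits listed with the FPKM equal the FPKM itself in 225016 of 225024 cases and served no purpose here. FPKM are not counts, but 99.27% to 99.82% of values of at most 6 fragments were whole multiples of 1 fragment within 0.05, which gave the implied depth. Fragment numbers cover counting error only.

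Groups and numbers come from the sample titles. Each gene was represented by its transcript of highest mean FPKM, and the 10950 genes with every sample above 0 were fitted as log2(FPKM + 0.1) with limma 3.58.1 (eBayes with trend, R 4.3.3), two-sided and unblocked, like the unpaired statistics of the study. Fold changes on this scale understate those of low genes. The 3 ratios were compared by exact permutation (SciPy 1.17.1). Same-numbered samples deviated together (correlations 0.347 to 0.623, each sample highest with its own number), so that the numbers pair the samples, although the labels do not say what a number stands for and the study describes independent experiments with different rats. Named are the 10 genes, Nr4a2 and, per list, up to 3 genes with the largest change among those passed whose FPKM averaged at least 1 and that kept 1 direction in 6 pairs. The genes and lists were chosen with earlier results of these data known. Alternatives were pseudocounts of 1 and 0.01, no filter, a stricter filter (FPKM averaging at least 1), quantile normalization, the TPM scale, no trend, the replicate block, transcripts summed and each sample left out in turn.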

Additional observations from a re-analysis of the deposited data

Results flagged for a closer look

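The 10 genes and the 3 ratios were checked in each group for a sample standing far from the other 5, 26 groups of values in all, and 1 was found. Myh6 in Ad-GFP sample 28 was 953 FPKM, with the next lowest at 1137 FPKM, and this gap is 0.666 of the range of the group, above Dixon's 95% critical value for 6 samples. Chance alone gives about 1 such value in 20 groups. Without that sample the log2 fold change of Myh6 stayed past the threshold.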

How the results depend on the processing

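Of the 10 genes, 5 kept their direction and their side of the threshold in all 21 alternatives: Myh6, Myh7, Myh7b, Myl4 and Mybpc3. The number of genes lower was 5 to 7 over the alternatives (5 to 6 with a sample left out) and the number higher was 0 in each. Myl2 did not pass without the filter on low values (log2 fold change -0.20, adjusted p = 0.595) or after quantile normalization (0, adjusted p = 1.00), which sets a gene of the same rank in every sample to the same value; the cause of the former was not tested. For Myom1 the sign turned after quantile normalization (-0.0364) and on the TPM scale (-0.00950), and its values ran from -0.0352 to 0.0476 with samples left out. Those of Myl3 ran from -0.0944 to 0.00211 and those of Myl7 from -0.14 to 0.42. With the replicate block 8 partner genes were higher against 5 without it, and for the Myl4 to Myl3 difference of -0.57 the exact sign-flip permutation test stood at its lowest possible p, which after adjustment over 3 ratios (p = 0.0938) could not pass, so that this says nothing about its stability. Among the 10 genes and the 3 ratios, the block changed no other call than that of Mylk3 and the adjusted p of that ratio. With samples left out, the Myh6 to Myh7 difference was 0.18 (without Ad-h-NR4A2 sample 29) to 0.47 (without Ad-GFP sample 24). No scaling moved the median of all genes by over 0.1. Depth limits Myl7 first, at 12 to 112 fragments per sample.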

Other observations

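The following genes of the lists are low and were listed at 0 in some samples, and they were picked after their values were seen. Myh8, the perinatal skeletal heavy chain, was at 0 to 0.0199 FPKM with Ad-GFP, at most 2 implied fragments per sample and listed at 0 in 2 of 6, and at 0.0869 to 0.498 FPKM with Ad-h-NR4A2, 10 to 58 fragments. The highest Myh8 value remained far below the lowest Myh7b value of any sample, 4.03 FPKM. Vgll2, a cofactor of TEAD factors, was at 0 to 0.0957 FPKM with Ad-GFP, at most 3 implied fragments, and at 0.256 to 0.835 FPKM with Ad-h-NR4A2, 8 to 29 fragments, and was listed at 0 in 4 of 6 Ad-GFP samples. Both genes were thus higher in every Ad-h-NR4A2 sample than in any Ad-GFP sample, but as they were chosen for this pattern no test and no fold change is given.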
